A study of Drosophila melanogaster with 72 samples.

Results

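Brains of the Drosophila melanogaster line R85C10 that had spent a 12 h day at 29 °C without a TrpA1 transgene were compared with brains of the same line that carried TrpA1 and stayed at 21 °C. The members are 6 of the 72 libraries of the study, 3 in each group, chosen by their labelled line, transgene and temperature. R85C10 is a GAL4 line: it expresses GAL4, a transcription factor that switches on any gene placed behind a UAS sequence, in chosen neurons. TrpA1 is a cation channel that opens with warmth, so neurons that carry it fire when the fly is moved from 21 to 29 °C. The labels' treatment protocol puts this line in a sleep promotion experiment, while the sample titles say sleep deprivation; the protocol, with its 12 h shift, is followed here. The GAL4 control 29C group has GAL4 but lacks UAS-TrpA1 and was kept at 29 °C for the 12 h of daylight. The TrpA1 29C group has both transgenes and had the same 12 h at 29 °C. The TrpA1 21C group has both transgenes and stayed at 21 °C. Brains of all 3 groups were dissected at lights off, zeitgeber time 12 (ZT12, hours after lights on), and each library is a pool of 15 brains. Age and sex are not given in the sources used here. GAL4 control 29C differs from TrpA1 21C in genotype and in temperature, so every difference between them may come from either, and the 2 cannot be told apart in these 6 libraries.

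Flies take on the temperature of their surroundings, and a warm day is part of their normal range. Above it, the transcription factor Hsf switches on chaperones of the Hsp70 and small heat shock families, which hold unfolding proteins. Temperature also sets the phase and splicing of clock transcripts, the speed of metabolism and the firing of thermosensory neurons, and many neuropeptide genes are read out with neuronal activity.

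The 6 libraries held 6195319 to 8060185 estimated counts each and 10511 to 10686 genes with a count, so depth was alike in the groups. Values are given below in CPM, in which each count is taken relative to its library's total after TMM scaling. Nothing states that replicates came from separate crosses, so p-values measure only the spread between these pooled samples. In whole brains, fewer cells of a type and less RNA per cell cannot be told apart. All 10 neuron markers and all 10 glia markers were present in the 6 libraries. Markers of the eye, fat body and muscle were present too: photoreceptor markers summed to 953 to 1832 CPM in GAL4 control 29C and 290.1 to 1580.1 CPM in TrpA1 21C. GAL4 control 29C replicate 2 stood apart from its group in chaperone transcripts, with 433 CPM of Hsp83 against 1135 and 1329 CPM in the other replicates. The departure was not confined to chaperones, as its cytosolic ribosomal protein genes summed to 24097 CPM against 33044 and 29505 CPM. TrpA1 21C replicate 3 stood apart in inducible heat shock transcripts, with 407 CPM over the Hsp70 and Hsp68 genes against 73.3 and 92.6 CPM.

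TrpA1 followed the labelled genotype. GAL4 control 29C had 10.2, 10.2 and 11.5 CPM of TrpA1, against 304, 311 and 288 CPM in TrpA1 21C, a log2 difference of -4.82 (SE 0.0969, edgeR quasi-likelihood test, adjusted p = 2.42e-13). TrpA1 29C libraries had 137, 126 and 138 CPM. The eye-colour gene w, which transgene vectors usually carry as a marker, was at 18.4, 15.1 and 18.6 CPM in GAL4 control 29C and at 41.4, 40.03 and 33.8 CPM in TrpA1 21C (log2 -1.15, SE 0.129, edgeR adjusted p = 0.000126). For both genes all 3 GAL4 control 29C libraries lay below all 3 TrpA1 21C libraries.

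Across 8688 tested genes, 784 differed between GAL4 control 29C and TrpA1 21C at an edgeR adjusted p under 0.05, which is 9.02% of those tested. Of these, 363 were higher in GAL4 control 29C (4.18%) and 421 lower (4.85%), with a median absolute log2 difference of 0.54. At an unadjusted p under 0.05 there were 2072 of the 8688 genes, both directions together. Of the called genes, 95 of the higher and 53 of the lower genes passed a 2-fold difference. A gap between groups was common by itself, since for 2604 tested genes (30.0%) the 3 values of one group did not overlap those of the other. Called or not, 4701 of the 8688 genes had positive and 3986 negative differences, beside which the sign counts of lists below are to be read. On log2(TPM + 1) with limma, where the median of all genes lay at 0.11, not 0.03, 832 genes passed and 69.1% of them were higher, against 46.3% in the edgeR fit. Leaving out GAL4 control 29C replicate 2 gave 1314 calls (569 higher, 745 lower), and leaving out any other of the 6 libraries gave 271 to 448. An offset for transcript length gave 1431 (591 higher, 840 lower) and a replicate block 1092 (487 higher, 605 lower). List counts under changed settings are to be read beside these.

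**Figure D1:**
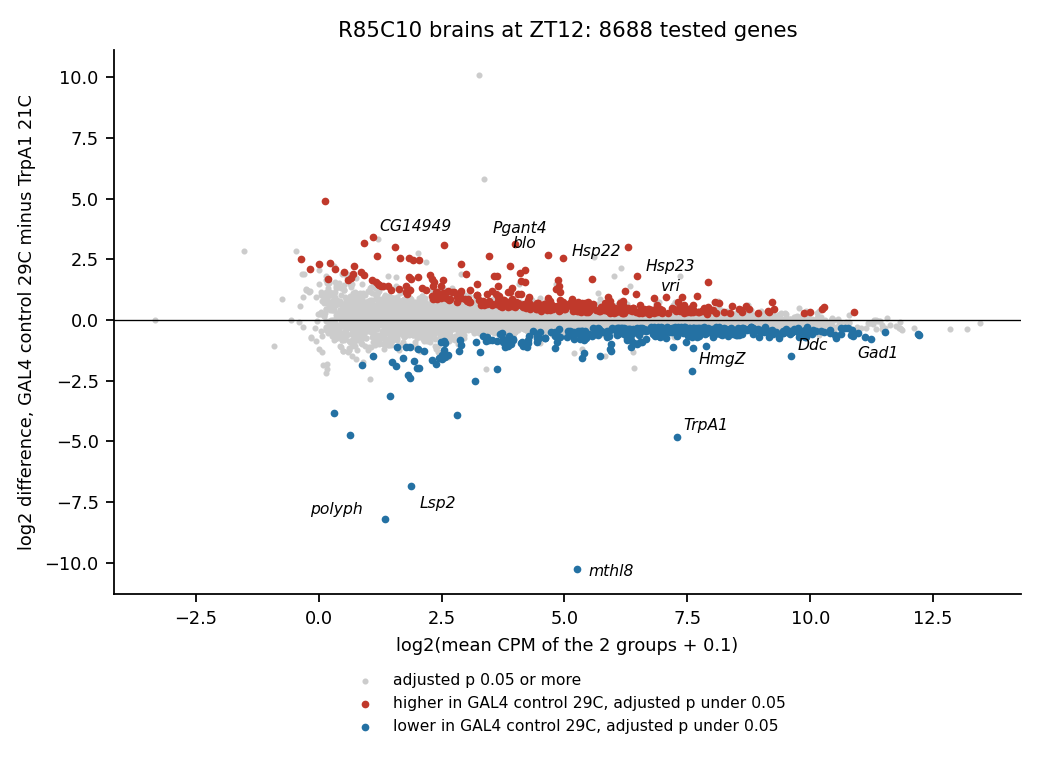
Log2 difference between GAL4 control 29C and TrpA1 21C (vertical axis) against log2(mean CPM + 0.1) (horizontal axis) for 8688 tested genes, with genes past the adjusted threshold in red where higher and in blue where lower. mthl8, polyph and Lsp2 lie below all other called genes, while most called genes lie within 1 log2 unit of 0.

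The lowest transcripts in GAL4 control 29C were close to absent there. The receptor gene mthl8, of the methuselah-like family of G protein-coupled receptors, had 1 count over the 3 GAL4 control 29C libraries and 1596 over the 3 TrpA1 21C libraries. In CPM these were 0.155, 0 and 0 against 80.7, 72.6 and 76.4, a ratio of 1598 for TrpA1 21C over GAL4 control 29C (95% counting interval 286 to 63139, edgeR adjusted p = 1.99e-12). The amino acid transporter gene polyph had 0 counts in the 3 GAL4 control 29C libraries against 102 in TrpA1 21C, so it was at least 34.0-fold lower, taking 3 counts over the group as the floor (edgeR adjusted p = 3.28e-05). TrpA1 29C libraries read 129, 130 and 128 CPM of mthl8 and 5.04, 4.51 and 6.43 CPM of polyph. Undisturbed iso31 brains, a white-eyed laboratory strain kept at 25 °C and also dissected at ZT12, had 0 CPM of both genes in all 3 libraries. Thus mthl8 and polyph were present in the 6 R85C10 libraries that carry TrpA1, at either temperature, and at or near 0 in the 3 R85C10 libraries that do not and in the 3 of iso31. CG6142 was arranged likewise at a smaller size, with 2.01, 3.47 and 2.54 CPM in GAL4 control 29C, 20.3, 20.5 and 17.8 CPM in TrpA1 29C and 13.4, 15.3 and 17.0 CPM in TrpA1 21C. Its log2 difference from TrpA1 21C was -2.49 (SE 0.216, edgeR adjusted p = 1.1e-05).

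For other genes with large differences, TrpA1 29C lay near GAL4 control 29C. HmgZ, which encodes a chromatin protein of the high mobility group, had 65.01, 101 and 52.8 CPM in GAL4 control 29C and 323, 307 and 303 CPM in TrpA1 21C (log2 -2.10, SE 0.195, edgeR adjusted p = 0.00026), and TrpA1 29C had 65.3, 67.2 and 58.5 CPM. Pgant4, an enzyme that starts sugar chains on secreted proteins, had 24.9, 25.7 and 34.1 CPM in GAL4 control 29C and 2.05, 4.17 and 3.54 CPM in TrpA1 21C (log2 3.12, SE 0.225, edgeR adjusted p = 2.19e-06). TrpA1 29C had 45, 34.4 and 43.9 CPM of Pgant4. In neither gene did the GAL4 control 29C and TrpA1 21C libraries overlap. The gene blo differed in its arrangement: 41.9, 41.0 and 47.6 CPM in GAL4 control 29C, 9.90, 8.66 and 14.8 CPM in TrpA1 29C, and 3.56, 7.89 and 9.0 CPM in TrpA1 21C. Its difference from TrpA1 21C was log2 2.68 (SE 0.268, edgeR adjusted p = 0.000126).

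**Figure D2:**
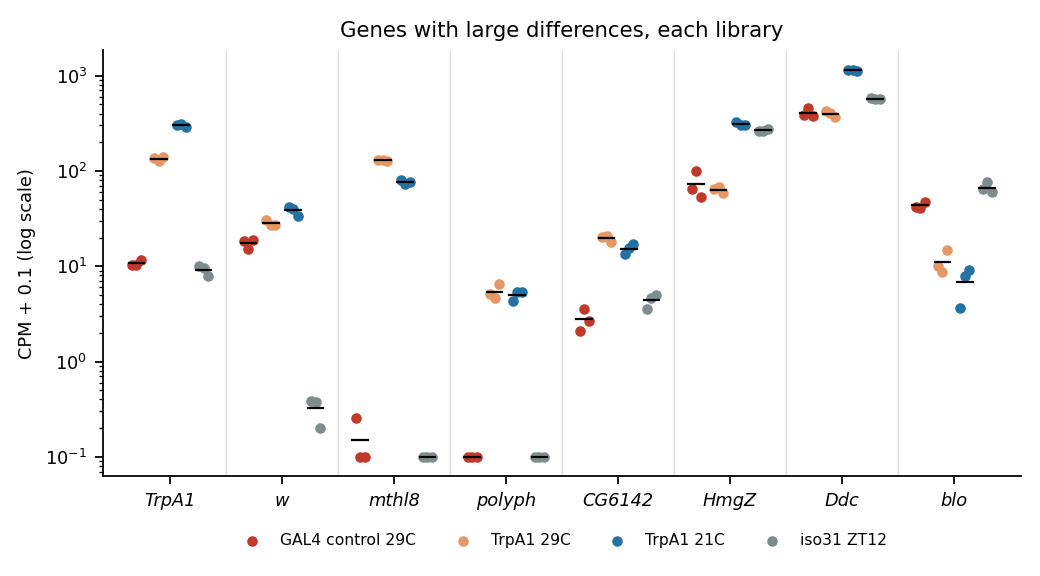
CPM plus 0.1 on a log scale for 8 genes in R85C10 GAL4 control 29C, TrpA1 29C and TrpA1 21C and in undisturbed iso31 at ZT12; points are libraries and bars are means of 3. mthl8, polyph and CG6142 are high in both TrpA1 groups, whereas HmgZ and Ddc are low in both groups kept at 29 °C.

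The remaining genes with the largest differences, among called genes without overlap and with a mean of at least 1 log2 CPM, were mostly rare transcripts. CG14949 averaged 3.73 ± 0.585 CPM in GAL4 control 29C and 0.338 ± 0.0915 CPM in TrpA1 21C (SD, n = 3 each), a log2 difference of 3.41. CG6071 (2.99), CG1143 (2.65), CG31776 (2.65), CG42766 (2.58) and the eggshell protein gene Cp18 (2.54) were likewise higher in log2 terms, at 3.74 to 19.0 CPM in GAL4 control 29C on average. Cyp6g1, a cytochrome P450 known from insecticide resistance, had 6.97, 3.07 and 10.4 CPM in GAL4 control 29C and 0.958, 1.34 and 1.33 CPM in TrpA1 21C (log2 2.49), a call that ended without GAL4 control 29C replicate 3 (edgeR adjusted p = 0.05004). CG5618 had 146, 54.9 and 215 CPM in GAL4 control 29C, against 13.3, 20.1 and 18.6 CPM in TrpA1 21C, and fon, a clotting protein of the hemolymph, had 9.75, 2.27 and 19.0 CPM against 0.684, 1.79 and 1.18 CPM. Calls for CG5618 (log2 3.00) and fon (log2 3.09) were lost without GAL4 control 29C replicate 1 or 3 or any TrpA1 21C replicate, with edgeR adjusted p-values of 0.0787 to 0.117 for CG5618 and 0.0831 to 0.141 for fon. Among lower genes, the storage protein gene Lsp2 had 0.155, 0 and 0 CPM in GAL4 control 29C and 2.33, 11.6 and 7.23 CPM in TrpA1 21C. That is 1 count against 144, a ratio of 144 for TrpA1 21C over GAL4 control 29C (95% counting interval 25.5 to 5732), and TrpA1 29C had 0.348, 0 and 0 CPM of Lsp2. Obp99a, an odorant-binding protein, averaged 1.12 ± 0.0778 CPM against 5.92 ± 1.71 CPM (SD, n = 3 each, log2 -2.38), and Dhc93AB, a dynein heavy chain of cilia, 0.514 ± 0.474 CPM against 4.78 ± 1.05 CPM (log2 -3.12). The eclosion hormone gene Eh (log2 -3.93), the peptide precursor gene Nplp2 (-2.03), ACXD, an adenylyl cyclase (-1.97), and the myosin gene Myo28B1 (-1.96) were lower too. The call of Eh was lost without either of GAL4 control 29C replicates 1 and 2 or TrpA1 21C replicates 1 and 2 (edgeR adjusted p = 0.0638 to 0.0906). The call of Nplp2 was lost without GAL4 control 29C replicate 2 or 3 or TrpA1 21C replicate 2 or 3 (edgeR adjusted p = 0.0837 to 0.127). The value of pre-mod(mdg4)-C (log2 -2.26) is uncertain, because it is a part of the trans-spliced mod(mdg4) locus, whose reads may be split between overlapping entries, and its call was lost without GAL4 control 29C replicate 1 or 3 or TrpA1 21C replicate 1 or 3 (edgeR adjusted p = 0.0554 to 0.0755).

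The inducible chaperone genes Hsp23, Hsp22 and Hsp68 were higher in GAL4 control 29C than in TrpA1 21C, by amounts that varied between libraries. Hsp23, a small heat shock protein, had 150, 109 and 155 CPM in GAL4 control 29C and 29.5, 32.6 and 54.0 CPM in TrpA1 21C (log2 1.83, SE 0.219, edgeR adjusted p = 0.00128). All 3 GAL4 control 29C libraries exceeded all 3 of TrpA1 21C, and the call held under each of 17 other settings. Hsp22, the small heat shock protein of mitochondria, had 50.9, 38.6 and 71.1 CPM in GAL4 control 29C and 3.01, 6.70 and 17.6 CPM in TrpA1 21C (log2 2.57, SE 0.52, edgeR adjusted p = 0.0331). Hsp68, an inducible relative of Hsp70, had 72.4, 48.2 and 95.9 CPM in GAL4 control 29C and 15.5, 15.6 and 35.0 CPM in TrpA1 21C (log2 1.71, SE 0.378, edgeR adjusted p = 0.0391). The calls of Hsp22 and Hsp68 were lost without GAL4 control 29C replicate 1 or 3 or TrpA1 21C replicate 2, and that of Hsp68 also without TrpA1 21C replicate 1. Adjusted p-values of edgeR were then 0.0851 to 0.107 for Hsp22 and 0.102 to 0.117 for Hsp68. In TrpA1 29C the levels were 527, 476 and 485 CPM for Hsp23, 231, 216 and 200.4 CPM for Hsp22 and 296, 276 and 319 CPM for Hsp68.

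Of 7 tested genes for Hsp70 and Hsp68, 1 passed as higher, against 4.18% of all genes, and all 7 had positive log2 differences, with a median of 1.83 beside 0.03 over all genes. Hsp70Ba had 6.81, 12.4 and 15.5 CPM in GAL4 control 29C and 0.821, 2.23 and 6.34 CPM in TrpA1 21C (log2 1.92, edgeR adjusted p = 0.08). Copies of Hsp70 are nearly identical, so the split of reads between them is uncertain. Their sum with Hsp68 was 631, 457 and 888 CPM in GAL4 control 29C and 73.3, 92.6 and 407 CPM in TrpA1 21C, which do not overlap, and 4811, 4884 and 4935 CPM in TrpA1 29C. Of 9 tested small heat shock genes 2 passed (22.2%, against 4.18% of all genes higher), 7 had positive and 2 negative differences, and the median was 0.57. The lowest of the 9 was l(2)efl at -0.33, which did not pass. Hsp26 had 105, 99.2 and 142 CPM in GAL4 control 29C and 10.9, 14.7 and 52.7 CPM in TrpA1 21C (log2 2.14, edgeR adjusted p = 0.0669), and Hsp27 43.6, 35.0 and 46.8 CPM against 8.89, 7.59 and 27.7 CPM (log2 1.51, edgeR adjusted p = 0.0945). Without GAL4 control 29C replicate 2 and TrpA1 21C replicate 3, a choice made after seeing the data, all 7 Hsp70 and Hsp68 genes and 4 small heat shock genes passed. Without TrpA1 21C replicate 3 alone, which stood apart in these same transcripts, the counts were also 7 and 4. In that fit 153 of 8794 tested genes were higher. Leaving out any other of the 6 libraries gave 0 or 1 Hsp70 and Hsp68 genes and 1 or 2 small heat shock genes.

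**Figure D3:**
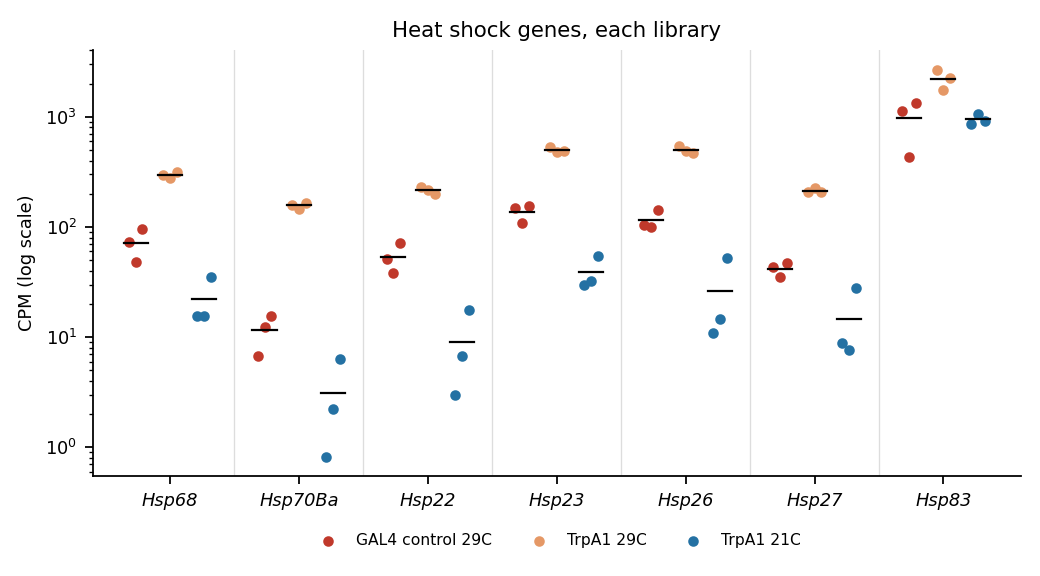
CPM on a log scale for 7 heat shock genes in R85C10 GAL4 control 29C, TrpA1 29C and TrpA1 21C; points are libraries and bars are means of 3. In Hsp68, Hsp22 and Hsp23 the GAL4 control 29C points lie between the other groups without overlap, while Hsp83 spans 433 to 1329 CPM in GAL4 control 29C around the 869 to 1062 CPM of TrpA1 21C.

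Constitutive chaperones differed less. Hsp83, the fly Hsp90, was at 1135, 433 and 1329 CPM in GAL4 control 29C and at 869, 1062 and 925 CPM in TrpA1 21C (log2 0.02, SE 0.389, edgeR adjusted p = 0.984), and 0 of 17 genes for Hsp90 and its partners passed, with a median log2 difference of 0.28. At an unadjusted p under 0.05 there were 5 higher and 1 lower, beside 2072 of 8688 genes in either direction. DESeq2 also called 0, and without GAL4 control 29C replicate 2 there were 8. The CCT chaperonin, a ring of 8 subunits that folds actin and tubulin, had positive differences in all 8 subunit genes with a median of 0.46. CCT2 (log2 0.77, edgeR adjusted p = 0.0359) and CCT6 (log2 0.40, edgeR adjusted p = 0.0491) passed, 25% of the list against 4.18% of all genes higher. CCT2 had 100.5, 62.7 and 113 CPM in GAL4 control 29C against 56.6, 53.0 and 51.5 CPM in TrpA1 21C. Without GAL4 control 29C replicate 2, 7 of 8 subunits passed, and when any other of the 6 libraries was left out 0 did by edgeR, where CCT2 had an adjusted p of 0.0939 to 0.123 and CCT6 of 0.117 to 0.227. At an unadjusted p under 0.05, 5 subunits were higher with all 6 libraries. Of 15 genes of the unfolded protein response in the endoplasmic reticulum, crc, the fly ATF4, was higher (log2 0.31) and PEK, the kinase PERK, lower (log2 -0.56). Each is 6.67% of the list, near the 4.18% higher and 4.85% lower over all genes. The crc call was lost when any 1 of the 6 libraries except GAL4 control 29C replicate 2 was left out (edgeR adjusted p = 0.0628 to 0.155).

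The clock gene vri, whose protein represses Clk, was the only one of 8 tested clock genes to pass (12.5%, against 4.18% of all genes higher). It had 160, 150.0 and 136 CPM in GAL4 control 29C and 70.6, 81.5 and 83.1 CPM in TrpA1 21C (log2 0.92, SE 0.179, edgeR adjusted p = 0.0113), with no overlap. TrpA1 29C had 75.9, 129 and 132 CPM. The vri call was lost without GAL4 control 29C replicate 1 (edgeR adjusted p = 0.0551). The feedback repressor per had 94.4, 132 and 80.6 CPM against 69.8, 76.2 and 83.4 CPM (log2 0.42, SE 0.223, edgeR adjusted p = 0.296), and its partner tim 325, 462 and 297 CPM against 260.3, 295 and 270 CPM (log2 0.39, SE 0.17, edgeR adjusted p = 0.186). Neither passed; the libraries of per overlapped between the groups and those of tim did not. With the replicate number as a block tim passed. Among 8 tested thermosensory genes 1 was lower (12.5%, against 4.85% of all genes). This was Ir68a, an ionotropic receptor of humidity-sensing neurons (log2 -0.87, edgeR adjusted p = 0.0433). Its call was lost when any 1 library but GAL4 control 29C replicate 2 was left out (edgeR adjusted p = 0.111 to 0.199). Among 5 genes of thermal acclimation 1 was lower (20%, against 4.85% of all genes). This was Gs1, a glutamine synthetase, at 293, 297 and 244 CPM against 423, 405 and 397 CPM (log2 -0.55, edgeR adjusted p = 0.00237). The cold-response gene Fst was under the low-count filter. The activity-regulated nuclear receptor gene Hr38 had 58.2, 112 and 62.7 CPM in GAL4 control 29C, 206, 255 and 193 CPM in TrpA1 29C, and 58.3, 87.5 and 69.6 CPM in TrpA1 21C (log2 0.12 between GAL4 control 29C and TrpA1 21C, edgeR adjusted p = 0.842). Of 6 genes on the activity list, CG17778 (-0.51) and CG14186 (-0.35) were lower (33.3%, against 4.85% of all genes). CG17778 was not called without GAL4 control 29C replicate 3 or TrpA1 21C replicate 2 (edgeR adjusted p = 0.0538 to 0.0553), nor CG14186 without GAL4 control 29C replicate 1 or any TrpA1 21C replicate (edgeR adjusted p = 0.0674 to 0.114).

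Neuropeptide precursors, the secreted signals of peptidergic neurons, were lower in GAL4 control 29C than in TrpA1 21C in 14 of 31 cases. Of the 31 tested precursors 0 were higher by edgeR, and 26 had negative differences, with a median log2 difference of -0.43. Over all genes 4.85% were called lower. DESeq2 called 15 lower and 0 higher. At an unadjusted p under 0.05 there were 19 lower and 0 higher, beside 2072 of 8688 genes in either direction. The gene spab had 140, 123 and 115 CPM in GAL4 control 29C and 247, 228 and 219.5 CPM in TrpA1 21C (log2 -0.88, SE 0.113, edgeR adjusted p = 0.0004). CCHa2, a nutrient-linked peptide, had 13.6, 10.8 and 9.68 CPM against 16.4, 21.1 and 20.8 CPM (log2 -0.78, edgeR adjusted p = 0.0136), a call lost without GAL4 control 29C replicate 3 or TrpA1 21C replicate 2 or 3 (edgeR adjusted p = 0.0663 to 0.0905). In both genes the groups did not overlap. The tachykinin precursor Tk (log2 -0.70), Nplp1 (-0.70), sNPF, the short neuropeptide F (-0.68), Dsk, the sulfakinin of satiety (-0.63), the insulin-like peptide Ilp2 (-0.50), the diuretic hormones Dh44 (-0.48) and Dh31 (-0.47), Proc (-0.48), ITP (-0.47), AstC (-0.41), Ms (-0.38) and AstA (-0.27) completed the 14. Pdf, the peptide of the clock neurons, had 207, 201 and 192 CPM in GAL4 control 29C and 215, 228 and 204 CPM in TrpA1 21C (log2 -0.11, edgeR adjusted p = 0.61). Tk had 201, 198 and 194 CPM in GAL4 control 29C, 308, 253 and 245 CPM in TrpA1 29C and 336, 319 and 304 CPM in TrpA1 21C, so the mean of TrpA1 29C lay between the others. Precursor sums were 4231, 4049 and 3857 CPM in GAL4 control 29C and 5617, 5564 and 5604 CPM in TrpA1 21C. TrpA1 29C summed to 4521, 4062 and 4229 CPM, and undisturbed iso31 at ZT12 to 4257, 4088 and 4855 CPM. The iso31 sums overlapped those of GAL4 control 29C and lay below all those of TrpA1 21C. Whether genotype or temperature set these sums was not tested. Leaving out 1 library gave 9 to 13 lower precursors, with 9 when GAL4 control 29C replicate 3 was left out, and 10 passed without GAL4 control 29C replicate 2 and TrpA1 21C replicate 3.

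Enzymes and transporters of dopamine, serotonin and octopamine had negative differences in all 10 tested genes, of which 2 passed as lower, against 4.85% of all genes. Ddc, the decarboxylase that makes both dopamine and serotonin, had 391, 453 and 379 CPM in GAL4 control 29C and 1160.2, 1147 and 1129 CPM in TrpA1 21C (log2 -1.49, SE 0.0967, edgeR adjusted p = 8.8e-07). Every GAL4 control 29C library lay far below every TrpA1 21C library. TrpA1 29C libraries had 424, 405 and 369 CPM of Ddc, and iso31 brains at ZT12 had 579, 563 and 573 CPM. The tyrosine hydroxylase gene ple, which makes the dopamine precursor, had 52.5, 66.4 and 51.8 CPM against 81.4, 83.8 and 82.0 CPM (log2 -0.53, edgeR adjusted p = 0.00721), a call lost without GAL4 control 29C replicate 3 (edgeR adjusted p = 0.0558). Among 13 sleep regulators, Hk, the beta subunit of the Shaker potassium channel, was lower with 773, 1013 and 772 CPM against 1242, 1212 and 1245 CPM (log2 -0.53, edgeR adjusted p = 0.0131). The Hk call was lost without GAL4 control 29C replicate 1 or 3 or TrpA1 21C replicate 1 or 3 (edgeR adjusted p = 0.0524 to 0.0886). It was the only sleep regulator called (7.69%, against 4.85% of all genes lower), while 7 were lower with the length offset and 5 without GAL4 control 29C replicate 2.

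**Figure D4:**
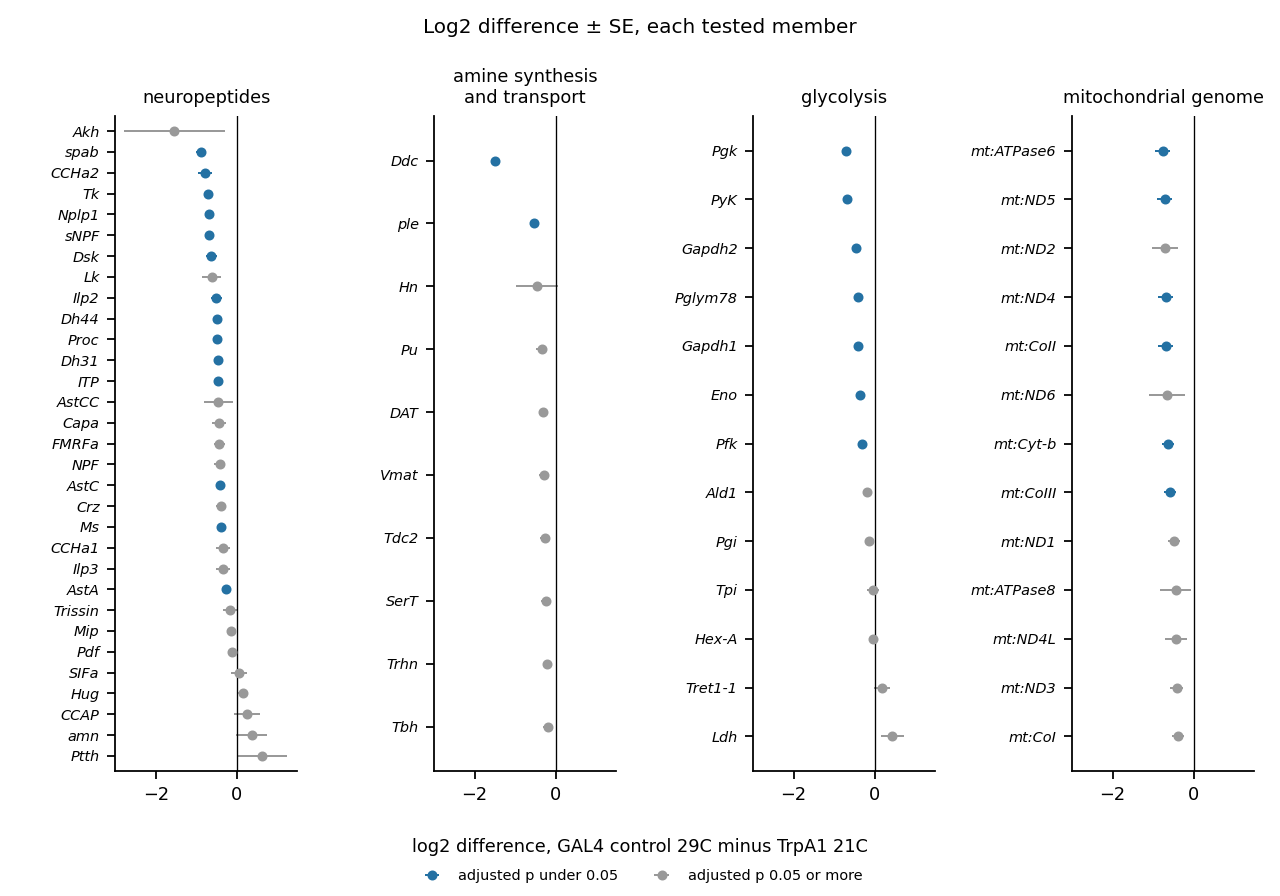
Log2 difference between GAL4 control 29C and TrpA1 21C with its SE for each tested member of 4 gene lists, in blue where the adjusted p was under 0.05. All 13 mitochondrial genes and all 10 amine genes lie left of 0, and Ddc at -1.49 lies furthest left among the called genes.

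Glycolysis genes were lower in part. Of 13 tested, 7 were lower and 0 higher by edgeR (8 and 0 at an unadjusted p under 0.05, and 8 and 0 by DESeq2), with a median log2 difference of -0.32. Over all genes 4.85% were lower, and 2072 of 8688 were at an unadjusted p under 0.05 in either direction. Pgk, phosphoglycerate kinase, had 170, 158 and 148 CPM in GAL4 control 29C and 267, 259 and 248 CPM in TrpA1 21C (log2 -0.70, SE 0.0925, edgeR adjusted p = 0.000486). PyK, pyruvate kinase, had 720, 688 and 609 CPM against 1081, 1059 and 1098 CPM (log2 -0.68, SE 0.0933, edgeR adjusted p = 0.000636). In both, every GAL4 control 29C library was below every TrpA1 21C library. Gapdh2 (-0.45), Gapdh1 (-0.42), Pglym78 (-0.42), Eno (-0.36) and Pfk (-0.32) also passed, so the called genes cover the steps from glyceraldehyde 3-phosphate to pyruvate, and phosphofructokinase before them. Hexokinase Hex-A (-0.05) and triose phosphate isomerase Tpi (-0.05) did not pass. Leaving out GAL4 control 29C replicate 3 or TrpA1 21C replicate 2 left 2 called, leaving out TrpA1 21C replicate 1 or 3 left 3, and leaving out GAL4 control 29C replicate 2 with TrpA1 21C replicate 3 left 3. In storage and fatty acid synthesis 1 of 13 genes passed (7.69%, against 4.85% of all genes lower). This was the fatty acid synthase gene FASN3, at 1.24, 0.668 and 1.33 CPM against 3.56, 3.27 and 2.21 CPM (log2 -1.47, edgeR adjusted p = 0.0453). The FASN3 call was lost when any 1 of the 6 libraries was left out (edgeR adjusted p = 0.0698 to 0.161). Of 17 antioxidant genes 1 passed (5.88%, near the 4.85% of all genes lower): Sod3, the extracellular superoxide dismutase, with 97.2, 96.9 and 89.0 CPM against 202, 196 and 209.7 CPM (log2 -1.10, SE 0.109, edgeR adjusted p = 3.28e-05).

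Transcripts of the mitochondrial genome took a smaller share of the GAL4 control 29C libraries than of those of TrpA1 21C. They made up 2.37%, 2.51% and 1.68% of counts in GAL4 control 29C and 3.25%, 3.24% and 2.57% in TrpA1 21C, that is 2.18% ± 0.446 and 3.02% ± 0.391 (SD, n = 3 each). The groups did not overlap, and the two-sided exact permutation test gave p = 0.1, the smallest that 3 against 3 allows. All 13 genes had negative differences and 6 passed as lower, against 4.85% of all genes, with a median log2 difference of -0.63. The replicate block gave 10 lower, the length offset 2, and a fit over all 45 line libraries 0. mt:ATPase6 had 1991, 2161 and 1216 CPM against 3366, 3221 and 2529 CPM (log2 -0.76, SE 0.189, edgeR adjusted p = 0.0305), and mt:ND5 1118, 1432 and 805 CPM against 1987, 1977 and 1552 CPM (log2 -0.72, SE 0.187, edgeR adjusted p = 0.0384). Without TrpA1 21C replicate 1 or 2, 0 mitochondrial genes passed by edgeR, and without GAL4 control 29C replicate 1 or 3, 1 did. Without GAL4 control 29C replicate 2 there were 8. In those leave-outs that ended a call, edgeR adjusted p-values were 0.0688 to 0.108 for mt:ATPase6 and 0.0946 to 0.131 for mt:ND5. With all 6 libraries 9 were lower at an unadjusted p under 0.05, beside 2072 of 8688 genes in either direction. Of 61 nuclear genes of the respiratory chain 1 passed (1.64%, against 4.85% of all genes lower), ND-AGGG of complex I (log2 -0.37), with a median of -0.05 over the list. ND-AGGG was not called when any 1 library but TrpA1 21C replicate 3 was left out (edgeR adjusted p = 0.0693 to 0.161). With an offset for transcript length 14 nuclear genes were lower and 1 higher, beside 840 lower and 591 higher of all 8688 genes.

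Few genes for protein synthesis passed. Of 81 cytosolic ribosomal protein genes 5 were higher (6.17%, near the 4.18% over all genes) and 0 lower by edgeR, and 8 and 0 by DESeq2. At an unadjusted p under 0.05, 19 were higher and 0 lower, beside 2072 of 8688 genes in either direction. Of the 81, 73 had positive differences, beside 4701 of all 8688 genes, and the median log2 difference was 0.20. The gene sta, for the small subunit protein RpSA, had 815, 618 and 811 CPM in GAL4 control 29C and 441, 443 and 432 CPM in TrpA1 21C (log2 0.77, SE 0.122, edgeR adjusted p = 0.00175). RpS20 had 243, 152 and 201 CPM against 126, 118 and 109 CPM (log2 0.75, SE 0.19, edgeR adjusted p = 0.0392). RpL22 (0.47) and RpL23A (0.38) were also among the higher genes. Leaving out any of the 6 libraries but GAL4 control 29C replicate 2 left 1 call. Leaving out that library gave 18, beside 569 higher of all 8779 genes then tested. RpS20 had an edgeR adjusted p of 0.0886 to 0.121 in the 5 leave-outs that ended its call. An offset for transcript length gave 20 higher and 2 lower, beside 591 higher and 840 lower of all 8688 genes. Of 18 aminoacyl-tRNA synthetase genes, TrpRS (log2 0.56) and GluProRS (log2 0.44) were higher (11.1%, against 4.18% of all genes), and 8 were at an unadjusted p under 0.05. TrpRS was not called without GAL4 control 29C replicate 3 or TrpA1 21C replicate 2 (edgeR adjusted p = 0.0501 to 0.0558), nor GluProRS when any 1 library but GAL4 control 29C replicate 2 was left out (edgeR adjusted p = 0.0731 to 0.185). Among 32 proteasome genes 0 passed by edgeR, 1 by DESeq2 and 1 at an unadjusted p under 0.05, and the median was 0.03, the value over all genes.

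Among detoxification genes, 4 of 42 tested cytochrome P450 genes were higher (9.52%, against 4.18% over all genes) and 3 lower (7.14%, against 4.85%). Cyp4d14 averaged 8.64 ± 1.32 CPM in GAL4 control 29C and 2.75 ± 0.864 CPM in TrpA1 21C (SD, n = 3 each, log2 1.65, edgeR adjusted p = 0.00128), while Cyp12a5 averaged 4.21 ± 0.29 CPM against 10.1 ± 0.878 CPM (log2 -1.26, edgeR adjusted p = 0.00286) and Cyp9f2 97.7 ± 12.0 CPM against 153 ± 3.76 CPM (log2 -0.65). Of 36 glutathione and UDP-sugar transferase genes 1 was higher (2.78%, against 4.18% over all genes), Ugt302C1 (log2 1.20). Lower were 3 (8.33%, against 4.85%), among them Ugt35B1 (-1.18) and GstD3 (-0.86). Ugt35B1 had 39.0, 35.3 and 37.8 CPM against 78.2, 76.9 and 99.0 CPM, with no overlap. The Ugt302C1 call was lost when any 1 library but GAL4 control 29C replicate 3 was left out (edgeR adjusted p = 0.0515 to 0.0888). The Toll pathway factor dl (log2 0.82) was the only one of 12 immune signalling genes to pass (8.33%, against 4.18% of all genes higher). Its call was lost when any 1 library but GAL4 control 29C replicate 2 was left out (edgeR adjusted p = 0.0699 to 0.143). Of the antimicrobial peptide genes 1 was abundant enough to be tested and did not pass.

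Some cell markers differed between the groups. Glia markers summed to 4161 to 4871 CPM in GAL4 control 29C and 5802 to 5908 CPM in TrpA1 21C, and 3 of 10 were lower, against 4.85% of all genes, while 4 of 10 had positive differences. Gat, the GABA transporter of astrocyte-like glia, had 452, 611 and 429 CPM against 870, 799 and 806 CPM (log2 -0.73, SE 0.134, edgeR adjusted p = 0.00499), and alrm, the astrocyte marker, 259, 265 and 219.6 CPM against 410.5, 391 and 379.8 CPM (log2 -0.67, SE 0.0893, edgeR adjusted p = 0.000544). The glutamate transporter gene Eaat1 was lower too (log2 -0.56), while repo, the transcription factor of all glia, had 157, 149 and 150.2 CPM against 123, 129.8 and 131 CPM (log2 0.25, edgeR adjusted p = 0.0906). Neuron markers summed to 14471 to 17467 CPM in GAL4 control 29C and 16452 to 16838 CPM in TrpA1 21C. Of the 10 neuron markers, 2 were higher (20%, against 4.18% of all genes) and 1 lower (10%, against 4.85%). Negative differences were found in 7 of the 10, with a median log2 difference of -0.11. The higher ones were the RNA-binding protein genes elav (log2 0.35) and fne (log2 0.35). Without GAL4 control 29C replicate 3 or any TrpA1 21C replicate neither was called, and fne was not called without GAL4 control 29C replicate 1 either (edgeR adjusted p = 0.11 to 0.189 for elav and 0.0571 to 0.117 for fne). Gad1, which makes GABA, was lower, with 1438, 1595 and 1300 CPM against 2324, 2229 and 2304 CPM (log2 -0.66, SE 0.101, edgeR adjusted p = 0.00128). Of 5 tested fat body markers Lsp2 passed as lower (20%, against 4.85% of all genes), and 4 had negative and 1 a positive difference. The yolk protein gene Yp1 had 49.4, 20.4 and 33.0 CPM against 64.98, 159 and 183 CPM (log2 -1.99, edgeR adjusted p = 0.114). Fat body marker sums overlapped, at 482, 542 and 570 CPM in GAL4 control 29C and 420, 769 and 898 CPM in TrpA1 21C. Of 5 hemocyte markers Pxn was lower (log2 -0.54), 20% of the list against 4.85% of all genes. Of 13 photoreceptor markers 0 passed by edgeR, 1 by DESeq2 and 1 at an unadjusted p under 0.05, and of 11 muscle markers 0 passed in each of these ways. The part of these markers in the other differences was not tested. The called share of tested genes by chromosome arm was 8.40% on 2L, 8.16% on 2R, 10.1% on 3L, 9.51% on 3R, 13.2% on 4, 8.01% on X and 46.2% in the mitochondrial genome.

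The same contrast exists in the 4 other lines, R21H11, R65H02, HC (Hot cell in the labels) and R60F09, which activate neurons described as wake-promoting, but after 3 h at 29 °C and at ZT0. They share no library with R85C10, although in them too the 29 °C group lacks TrpA1. Called genes made up 16.5% of those tested in R21H11 (6.74% higher, 9.72% lower), 48.3% in R65H02 (24% and 24.3%), 33.3% in HC (15.8% and 17.5%) and 49% in R60F09 (24.6% and 24.4%). Of the 363 genes higher in R85C10, 130 were also higher in R21H11 (35.8%, and 21.7% of the genes higher in R21H11), 227 in R65H02 (62.5% and 10.5%), 187 in HC (51.5% and 13.5%) and 210 in R60F09 (57.9% and 9.60%). Of the 421 lower genes, 171 were also lower in R21H11 (40.6% and 19.8%), 267 in R65H02 (63.4% and 12.2%), 248 in HC (58.9% and 16.1%) and 234 in R60F09 (55.6% and 10.8%). Calls in the opposite direction numbered 2 to 19 of the higher and 4 to 36 of the lower genes.

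Leaving out TrpA1 and w, 122 genes were higher and 155 lower in all 5 lines. Hsp23 was among the higher ones, at log2 1.83 in R85C10, 1.57 in R21H11, 2.56 in R65H02, 2.51 in HC and 2.61 in R60F09. HmgZ was among the lower ones, at -2.10 in R85C10, -2.50 in R21H11, -3.25 in R65H02, -2.90 in HC and -3.48 in R60F09, and Ddc at -1.49, -1.23, -1.61, -1.57 and -1.30 in the same order. The lower set also held 6 of the 7 called glycolysis genes (all but Pfk), 6 neuropeptide genes (CCHa2, Dh31, Dsk, Ms, Tk and spab), 5 mitochondrial genes, and mthl8 and polyph. The higher set also held CCT2, CCT6, TrpRS, GluProRS, Cyp4d14 and elav.

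The R85C10 difference was then set against the mean difference of the 4 other lines in a fit of 30 libraries. Of 9211 tested genes 3094 passed (33.6%), 1637 with a more positive (17.8%) and 1457 with a more negative (15.8%) difference in R85C10. Line, hours of warmth and zeitgeber time differ together here and cannot be told apart. The count was 1301 with an offset for transcript length and to 5 when a 1.5-fold difference was required. On log2(TPM + 1) with limma 20.4% of calls were positive, against 52.9% in the edgeR fit, and the median of all genes was -0.20, against 0.08.

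Of the genes with the clearest departure, some had opposite signs. The gene sta was higher in R85C10 (0.77) and lower in R21H11 (-0.55), R65H02 (-0.51), HC (-0.51) and R60F09 (-0.67), a log2 difference of differences of 1.34 (edgeR adjusted p = 1.3e-05). CG31676 had 30.0, 31.8 and 37.0 CPM in R85C10 GAL4 control 29C and 16.4, 17.6 and 18.4 CPM in R85C10 TrpA1 21C (log2 0.92), and -0.23 to -0.54 in the other lines. The gene vir-1, known to be induced by virus, was also higher in R85C10 (0.43) and had negative differences in the others, at -0.30 to -0.80. Leaving out GAL4 control 29C replicate 3 or TrpA1 21C replicate 1 or 3 ended the R85C10 call of vir-1 (edgeR adjusted p = 0.0619 to 0.0919). The immunoglobulin-family gene plum had 74.5, 98.1 and 85.9 CPM in R85C10 GAL4 control 29C, against 115, 115 and 100.03 CPM in R85C10 TrpA1 21C (log2 -0.36, edgeR adjusted p = 0.0438), and was higher by 0.51 to 0.84 in each of the other lines. When any 1 of the 6 libraries but GAL4 control 29C replicate 2 was left out, the plum difference in R85C10 was not called (edgeR adjusted p = 0.062 to 0.161). The cell-surface protein gene DIP-beta was lower in R85C10 (-0.65) and at -0.01 to 0.21 elsewhere. CG31808 (-0.59) and Fs, the activin-binding follistatin (-0.64), were lower in R85C10 as well, with 0.15 to 0.35 and 0.26 to 1.19 elsewhere. The call of CG31808 in R85C10 was lost without GAL4 control 29C replicate 3 (edgeR adjusted p = 0.0765). CG14864 and Herc4, a ubiquitin ligase, kept their sign at a smaller size: CG14864 was at -1.04 in R85C10 and -1.72 to -2.73 elsewhere, and Herc4 at 0.46 and 1.19 to 1.51. The call of CG14864 in R85C10 was lost without GAL4 control 29C replicate 1 or 3 or TrpA1 21C replicate 2 or 3 (edgeR adjusted p = 0.0617 to 0.0938), while each difference from the other lines stayed past the threshold when any 1 of these 6 libraries was left out. For vri, at 0.92 in R85C10 and 0.19 to 0.41 elsewhere, the difference from the other lines did not pass (log2 0.60, edgeR adjusted p = 0.053). It did for tim, at 0.39 in R85C10 and -0.11 to -0.62 elsewhere (log2 0.76, edgeR adjusted p = 0.00119), and for Hsp83, at 0.02 in R85C10 and 0.39 to 1.64 elsewhere (log2 -0.95, edgeR adjusted p = 0.0221). The R85C10 value of Hsp83 ran from -0.28 to 0.37 when 1 library was left out. For vri, tim and Hsp83 the difference from the other lines is given from the main fit only.

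**Figure D5:**
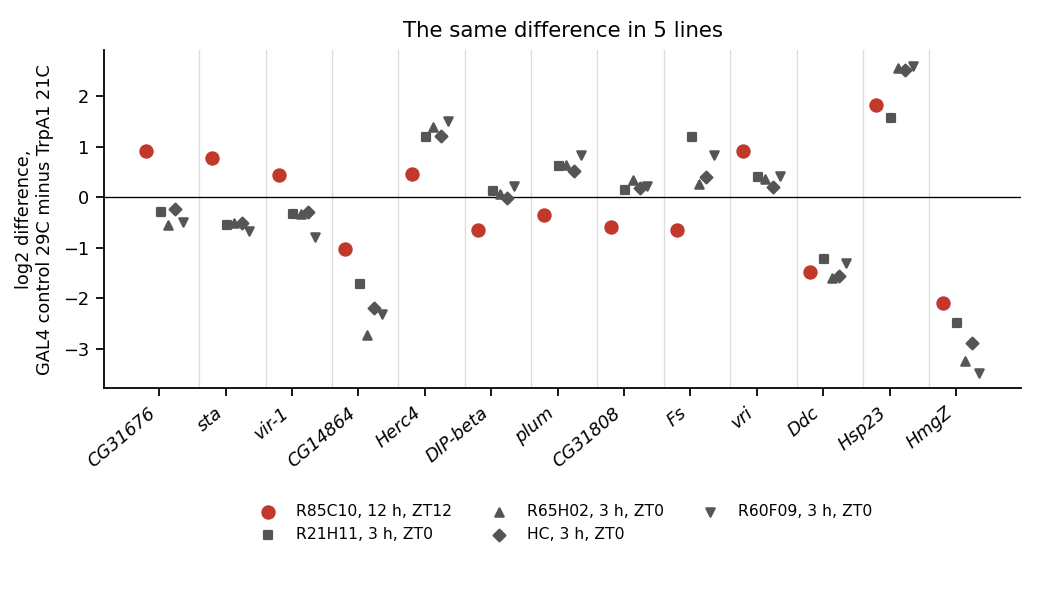
Log2 difference between GAL4 control 29C and TrpA1 21C in R85C10 (red circles; 12 h, ZT12) and in the 4 other lines (grey symbols; 3 h, ZT0) for 13 genes. For sta, CG31676, vir-1, plum, CG31808 and Fs the red circle lies on the other side of 0 from all grey symbols, while for Ddc, Hsp23 and HmgZ all 5 lie on the same side.

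The TrpA1 29C libraries of R85C10 differ from GAL4 control 29C in genotype and in the activation of the R85C10 neurons. Between them 125 genes passed (1.44% of those tested), of which 74 were higher (0.852%) and 51 lower (0.587%) in TrpA1 29C. Against TrpA1 21C, which has the same genotype and stayed at 21 °C, 1625 genes passed (18.7%), 820 higher (9.44%) and 805 lower (9.27%). These comparisons share libraries with each other and with the 784 calls between GAL4 control 29C and TrpA1 21C.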

How the data were processed

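Whole-brain RNA was isolated with the PicoPure kit and made into libraries with the NEBNext Ultra II RNA kit, per the labels' protocols. The deposited table of estimated counts per gene came from kallisto 0.46.1, per the submitters' processing notes; the genome build, strand setting and read totals are not given in the sources used here. A table of TPM per gene, deposited by the authors, was used for an alternative only. Of 13898 listed genes 13654 had a count, and 89.0% of count values lay within 0.02 of a whole number; all were rounded. Gene names were matched to RefSeq (Release 6 plus ISO1 MT): 12411 by current symbol, 1407 by synonym, 46 by elimination, and 34 were unmatched.

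Genes passing filterByExpr were fitted with edgeR 4.0.16 (R 4.3.3; TMM, robust quasi-likelihood F-test) on the 9 R85C10 libraries, with Benjamini-Hochberg adjustment over all tested genes and a threshold of 0.05. The difference from the other lines used 30 libraries. Alternatives used DESeq2 1.42.0, limma 3.58.1 on log2(TPM + 1), RLE scaling, no filter, a 1.5-fold requirement, a transcript length offset, a replicate block, other sets of libraries and each replicate left out. The code was tested on simulated data with known changes. Intervals and floors cover counting error only.

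Named genes are 13 fixed genes, then up to 12 with the largest differences in each direction among called genes without overlap and with a mean of at least 1 log2 CPM, then up to 2 in each direction from each of 31 lists, and up to 5 in each direction for the difference from the other lines. Other list members were named after their values were seen, to complete a list or to show its spread. The members, lists and tests were chosen with earlier results of these data known. The results of 1 gene are not reported here.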

Additional observations from a re-analysis of the deposited data

Results flagged for a closer look

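The R85C10 difference between GAL4 control 29C and TrpA1 21C was tested against the mean of the same difference in R21H11, R65H02, HC and R60F09. Of 9211 tested genes 3094 passed (33.6%). The 9 genes listed here passed the edgeR threshold in both tests and lay outside the range of the other lines. They come from a list capped at 5 genes in each direction, and other genes, such as blo, met these conditions too. The R85C10 difference minus that mean was 1.32 for CG31676, 1.34 for sta, 0.89 for vir-1 and 1.22 for CG14864 on the log2 scale. It was -0.85 for Herc4, -0.73 for DIP-beta, -0.99 for plum, -0.80 for CG31808 and -1.30 for Fs. R85C10 had 12 h of warmth and was dissected at ZT12, the others had 3 h and were dissected at ZT0, so line, duration and time of day cannot be told apart. With a 1.5-fold requirement CG31676 and sta stayed past the threshold and the other 7 did not.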

How the results depend on the processing

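Between GAL4 control 29C and TrpA1 21C, 784 genes passed in R85C10, 931 with DESeq2, 783 with RLE scaling, 771 without the low-count filter and 832 with limma. Larger changes were 51 genes with a 1.5-fold requirement, 1431 with a transcript length offset and 1596 with the length offset and replicate block; leaving out 1 library gave 271 to 1314. Without GAL4 control 29C replicate 2 and TrpA1 21C replicate 3, 800 passed, of which 568 were among the 784. The difference from the other lines had 3094 calls, 5 with a 1.5-fold requirement, 1301 with the length offset, 1310 with length offset and block, and 1787 to 3281 without 1 library. Lower neuropeptide genes numbered 0 with a 1.5-fold requirement and 9 to 13 without 1 library. The cause of these changes was not tested. Same-numbered libraries of GAL4 control 29C and TrpA1 21C had deviations correlated at -0.12, -0.05 and 0.04. For GAL4 control 29C and TrpA1 29C the values were 0.19, 0.30 and -0.07, and for TrpA1 21C and TrpA1 29C 0.26, -0.06 and 0.24. Differently numbered libraries ranged from -0.36 to 0.20. Not every library correlated best with its own number, and these values do not settle whether the numbers pair the libraries. The main fit did not pair them. With the replicate block 1092 genes passed. Hsp83 (0.02) turned to -0.0010 with DESeq2, -0.00089 with RLE scaling, -0.11 with the replicate block, with or without the length offset, and -0.033 with limma, and ran from -0.28 to 0.37 without 1 library. Hr38 (0.12) ran from -0.25 to 0.28 without 1 library and was -0.27 without both libraries named above. Of 76 named calls between the groups, 20 held under all 17 alternatives, among them TrpA1, mthl8, HmgZ, Ddc and Hsp23. Counts of 1 to 3 reads, as for mthl8 and Lsp2 in GAL4 control 29C, limit how far down a level can be read.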
